A study of Mus musculus with 12 samples.

Results

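The comparison described here is the added loss of NEIL1 in mice that already lack NEIL2: 2 libraries of Neil1/2-/- (double knockout) mice were set against 3 libraries of Neil2-/- mice, 5 of the 12 libraries in the series, across 13982 of the 18558 genes in the count table that passed a filter on low counts. Both groups share the deletion of Neil2 and differ by the deletion of Neil1. All animals were males of the strain background that the labels write as C57Bl6 and the study's methods as C57BL/6 N, 3 to 6 months old, sampled without a behavioral treatment given in the labels. The mutant lines had been backcrossed and kept as separate lines, so a difference between the groups can belong to the targeted gene or to any other sequence that differs between the lines. RNA came from the pyramidal layer of CA1, cut by laser from 8-µm sections of the dorsal hippocampus, and polyadenylated RNA was read as paired 100-bp reads. The other libraries were 2 of Neil1-/- mice and 3 of wildtype mice, which served here for the matching loss of NEIL1 in the presence of NEIL2, and 2 libraries whose title gives one genotype and whose label gives another. One of these, titled N1_2_3 as a Neil1/2-/- library but labelled Neil1-/-, was kept out of the groups and its values are given as a check.

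NEIL1 and NEIL2 are DNA glycosylases, the enzymes that start base excision repair by cutting an oxidized base out of DNA, and their substrates partly overlap. NEIL1 is known to act on double-stranded DNA around replication, and NEIL2 on single-stranded stretches and in transcribed genes. CA1 pyramidal neurons are the output cells of the hippocampus and take part in spatial learning and in anxiety.

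The 5 libraries held 20062787 to 21970173 counts each. The targeted genes were read first. Neil2 (gene 382913, at 63182439 to 63194154 of chromosome 14 in GRCm38) gave 0 counts in both Neil1/2-/- and all 3 Neil2-/- libraries and in N1_2_3, against 5 counts in each wildtype library. Neil1 (gene 72774, chromosome 9 from 57142788 to 57148688) was still counted, at 6.58 and 7.19 CPM (counts scaled by TMM to a common library size) in Neil1/2-/- mice, against 3.91, 4.05 and 4.01 CPM in Neil2-/- mice. These levels did not overlap, but the difference did not pass the test (log2 fold change 0.79, standard error 0.20, adjusted p = 0.166 by edgeR's quasi-likelihood test with Benjamini-Hochberg adjustment over all genes, as for every adjusted p below). The table does not tell which exons of a gene were read, so Neil1 cannot check its own label here. Wfs1, a marker of CA1 pyramidal neurons, was at 717 and 840 CPM in Neil1/2-/- mice, against 880, 687 and 912 CPM in Neil2-/- mice, and none of 8 CA1 markers passed the test of edgeR or of DESeq2 (2 at an unadjusted p under 0.05). One library stood apart. Neil1/2-/- replicate 1 lay at -43.9 on the first principal component, which held 23.4% of the variance, and the other 9 labelled libraries lay between -10.9 and 21.1. The paper left 2 outlying samples out of its group comparison, which then held 2 Neil1-/- and 2 Neil1/2-/- mice. Its text does not name them, so the 2 Neil1/2-/- libraries used here may not be the study's 2.

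Between Neil1/2-/- and Neil2-/- mice 31 genes changed, 0.222% of those tested. Of these, 18 were higher (0.129%) and 13 were lower (0.093%) in Neil1/2-/- mice. The median log2 fold change over all genes tested was -0.00, and the median size of the change among the 31 was 1.54 on the log2 scale. The change was above 1 in size for 19 of them. The libraries of the groups did not overlap for any of the 31, against 26.7% of all genes tested, which largely follows from the calling. The count rested on single libraries. It was 14 without Neil1/2-/- replicate 1, 328 without Neil1/2-/- replicate 2, 20 without Neil2-/- replicate 1 and 18 without Neil2-/- replicate 2 or 3. DESeq2 called 149 genes, with all 31 among them.

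The 31 genes fell into groups by position and by their values in the other libraries. Of the 31, 13 lay on chromosome 9, the chromosome of Neil1, and 12 of these within 20 Mb of it. Others differed from the loss of NEIL1 in mice that have NEIL2, among them Wdfy1, Mid1, Npy and the Tmem254 copies. A further group, led by the dopamine receptor genes Drd1 and Drd2, was higher in both labelled Neil1/2-/- libraries than in every Neil2-/- library. None of the 31 called genes overlapped between the labelled groups. What set the further group apart was N1_2_3, which lay within or near the Neil2-/- range for its genes.

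Genes around Neil1 were called more often than those elsewhere. Within 20 Mb of Neil1, 12 of 313 genes tested changed (3.83%), against 19 of 13669 elsewhere (0.139%). Of the 12, 5 were higher and 7 lower. No gene of 265 tested within 20 Mb of Neil2, where both groups carry the same deletion, changed by edgeR's test (27 at an unadjusted p under 0.05, 2 called by DESeq2). The number near Neil1 was 4 without Neil1/2-/- replicate 1, 6 without Neil2-/- replicate 2, 5 without Neil2-/- replicate 3 and 6 without wildtype replicate 3, which shares in the estimate of the spread.

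Nlrx1 encodes a mitochondrial protein that restrains innate immune signaling, and lies 12.9 Mb before Neil1 (chromosome 9 from 44252713 to 44268599). It was at 4.91 and 3.84 CPM in Neil1/2-/- mice, against 14.7, 16.3 and 15.8 CPM in Neil2-/- mice. It fell by 1.83 on the log2 scale (standard error 0.16, adjusted p = 2.38e-04). N1_2_3, at 4.50 CPM, lay between the Neil1/2-/- libraries. Clmp, which encodes an adhesion molecule of tight junctions (chromosome 9 from 40682123 to 40785553), was at 6.92 and 8.47 CPM in Neil1/2-/- mice, against 34.3, 26.9 and 39.4 CPM in Neil2-/- mice. It fell by 2.12 on the log2 scale (standard error 0.19, adjusted p = 2.43e-04), and its libraries were far apart between the groups.

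The clearest increases near Neil1 were Fxyd2 and Ift46. Fxyd2, a regulatory subunit of the sodium and potassium pump (chromosome 9 from 45399709 to 45410278), was at 22.2 and 27.6 CPM in Neil1/2-/- mice, against 7.64, 8.49 and 8.85 CPM in Neil2-/- mice, a log2 fold change of 1.58 (standard error 0.15, adjusted p = 3.17e-04). Ift46, a component of the particle that carries cargo along cilia (chromosome 9 from 44770456 to 44792714), was at 73.8 and 80.3 CPM in Neil1/2-/- mice, against 41.8, 40.01 and 46.4 CPM in Neil2-/- mice. This was a log2 fold change of 0.85 (standard error 0.08, adjusted p = 3.62e-04). Both genes were high in every library labelled or titled for the loss of NEIL1 and low in every other.

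Smaller changes filled the same stretch. Neo1, a netrin and repulsive guidance receptor 1.73 Mb beyond Neil1, was at 81.9 and 71.1 CPM in Neil1/2-/- mice, against 53.8, 46.0 and 43.7 CPM in Neil2-/- mice (log2 fold change 0.68, standard error 0.10, adjusted p = 0.0191). Scn2b, an auxiliary subunit of voltage-gated sodium channels, was at 145 and 162 CPM in Neil1/2-/- mice, against 301, 240 and 262 CPM in Neil2-/- mice. It fell by 0.80 on the log2 scale (adjusted p = 0.0222). Pkm, which encodes the muscle form of the glycolytic enzyme pyruvate kinase, was the most abundant of the 12 at 1021 and 1090 CPM in Neil1/2-/- mice, against 1431, 1330 and 1384 CPM in Neil2-/- mice, and lay just inside the threshold (adjusted p = 0.0499). Alg9, a mannosyltransferase of protein glycosylation, Layn, a hyaluronan receptor, and Dnaja4, a co-chaperone, were also lower, by log2 fold changes of -0.72, -1.51 and -0.61. Phldb1 was higher, at 33.1 and 25.8 CPM in Neil1/2-/- mice, against 18.3, 15.8 and 17.0 CPM in Neil2-/- mice. Without Neil1/2-/- replicate 1, Neo1, Scn2b, Pkm, Alg9, Layn, Dnaja4, Phldb1 and Drd2 lost their calls, while Nlrx1, Clmp, Fxyd2 and Ift46 kept theirs under all 22 alternatives. Dcps, an enzyme that clears the cap left by messenger RNA decay, lies 21.97 Mb before Neil1, outside the window. It was higher, at 28.4 and 31.5 CPM in Neil1/2-/- mice, against 16.2, 16.3 and 18.4 CPM in Neil2-/- mice (log2 fold change 0.82, adjusted p = 0.00176), and its call held under all 22 alternatives.

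**Figure D1:**
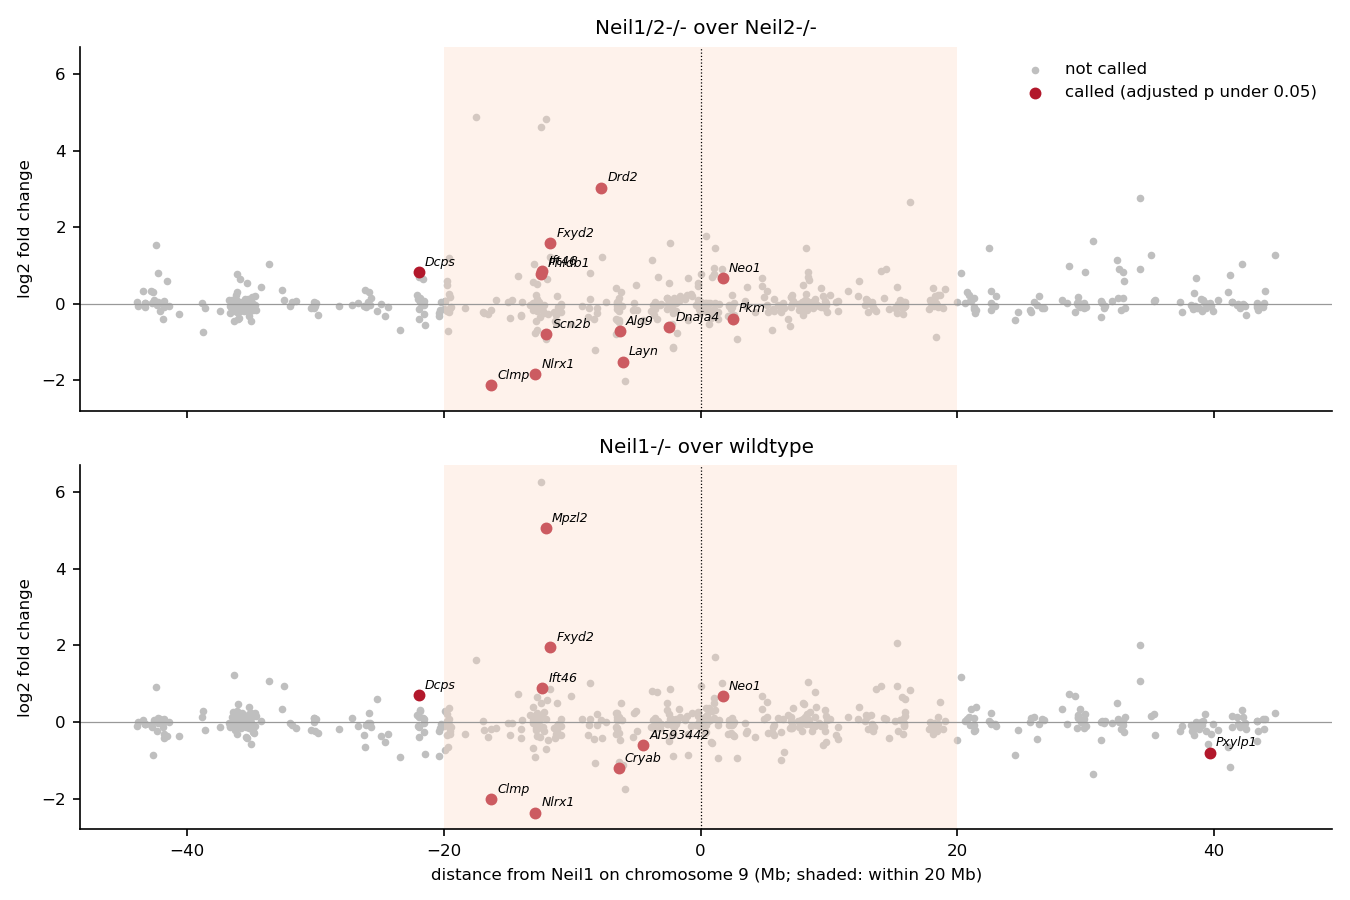
Log2 fold change (vertical axis) of each gene tested on chromosome 9 against its distance from Neil1 in Mb (horizontal axis; the shaded stretch is 20 Mb to each side), for Neil1/2-/- over Neil2-/- mice above and Neil1-/- over wildtype mice below. Red points changed at an adjusted p under 0.05. Nlrx1, Clmp, Fxyd2, Ift46, Neo1 and Dcps are red in both panels, on the same side of 0.

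The same deletion of Neil1 was read a second time, in the libraries of Neil1-/- and wildtype mice, which have NEIL2. These libraries do not enter the fold changes of the main comparison, but they share in its estimate of the spread. The agreement given below is therefore not wholly independent of the calling. Of 13982 genes, 28 changed between Neil1-/- and wildtype mice (0.2%). All 12 genes called near Neil1 had the same direction there, against 59.7% of all genes tested and 70.3% of the 313 tested within 20 Mb of Neil1. In 11 of the 12 the Neil1-/- libraries lay outside the wildtype range in that direction, against 17.3% of all genes, and 5 of the 12 were also called. Drd2 was the exception, at 0.858 and 0.251 CPM in Neil1-/- mice, against 0.194, 0.580 and 0.841 CPM in wildtype mice. The log2 fold changes without NEIL2 were close to those with it for Ift46 (0.85 and 0.89), Neo1 (0.68 and 0.69), Pkm (-0.39 and -0.35), Scn2b (-0.80 and -0.70), Clmp (-2.12 and -2.01) and Dnaja4 (-0.61 and -0.49). They were further from 0 without NEIL2 for Alg9 (-0.72 and -0.48), Phldb1 (0.79 and 0.51), Layn (-1.51 and -1.13) and Drd2 (3.04 and 0.05), and closer to 0 for Fxyd2 (1.58 and 1.96) and Nlrx1 (-1.83 and -2.36). The test of the difference did not pass for any of the 12. For Nlrx1 the interaction came to a log2 fold change of 0.53 (standard error 0.23, adjusted p = 0.874). Library N1_2_3 lay outside the Neil2-/- range on the side of the Neil1/2-/- libraries for 11 of the 12, Drd2 again excepted, against 32.2% of all genes. Of the 19 called genes elsewhere, 8 had the same direction in Neil1-/- against wildtype mice, 6 were outside the wildtype range in that direction and 2, Gm2427 and Dcps, were also called in that direction.

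**Figure D2:**
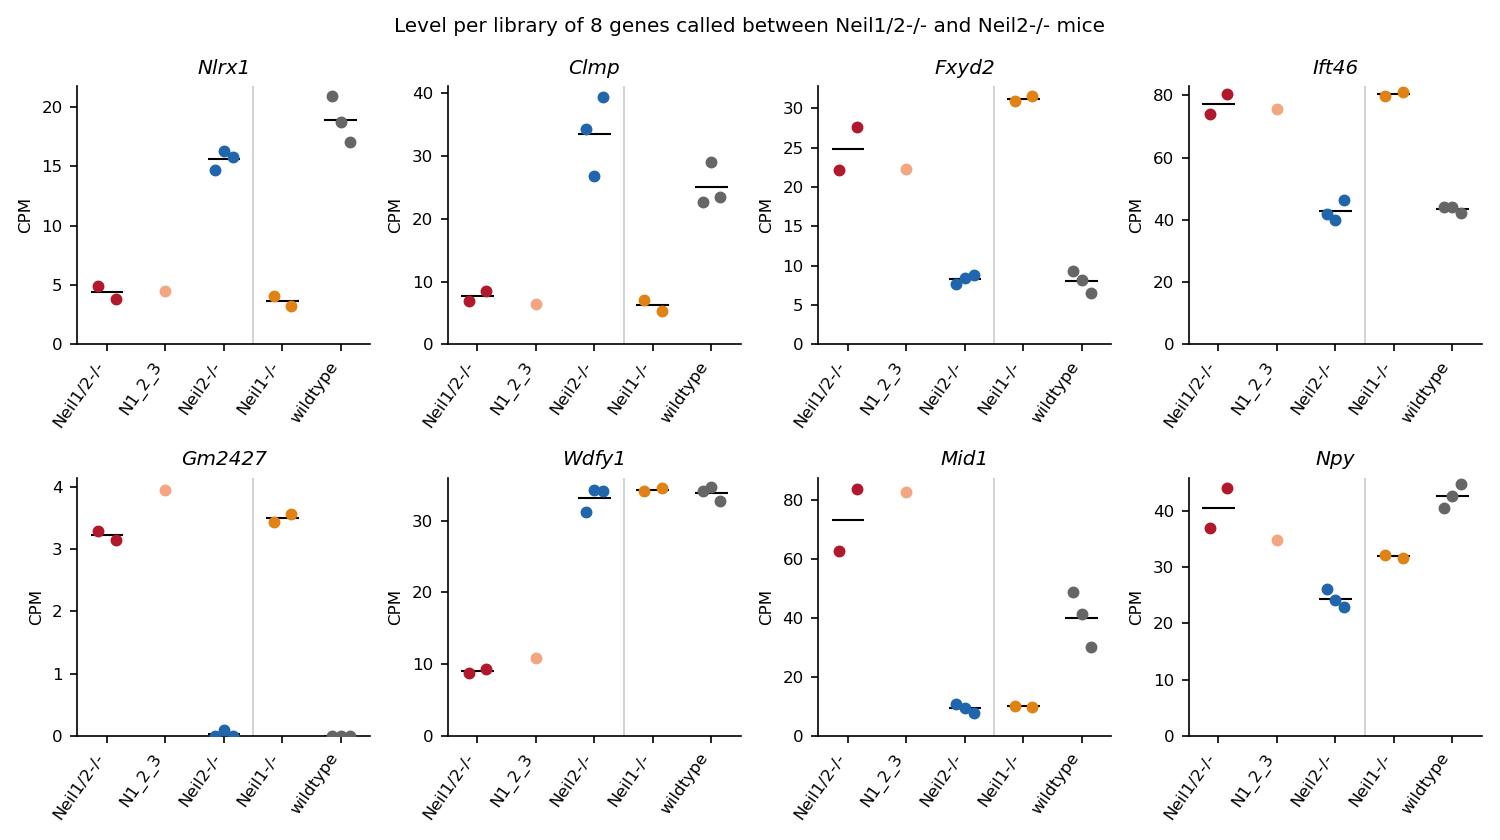
CPM (vertical axes, from 0) per library of 8 called genes, with a line at the mean of each group. In the top row all libraries without NEIL1 sit together, for example Fxyd2 at 22.2 and 27.6 CPM in Neil1/2-/- mice against 7.64 to 8.85 CPM in Neil2-/- mice. In the bottom row Wdfy1, Mid1 and Npy in Neil1-/- mice do not follow Neil1/2-/- mice.

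Gm2427 was counted in the lines without NEIL1 and was almost absent from Neil2-/- and wildtype mice. This predicted gene on chromosome 1 (from 85496430 to 85514604) had 67 and 64 counts in Neil1/2-/- mice, against 0, 2 and 0 counts in Neil2-/- mice. Summed over the libraries, the ratio of its counts at equal depth was 99.7, with a 95% exact interval of 27.1 to 832 that covers counting error only. In the other pair it had 72 and 71 counts in Neil1-/- mice and 0 in each wildtype library. N1_2_3 had 80 counts. Its call held under all 22 alternatives (adjusted p = 0.0016 in the fit described).

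Gm2427, Wdfy1, Ecel1 and Sag, 4 of the 31 genes, lay on chromosome 1, within the 8.14 Mb from Wdfy1 to Sag (79702262 to 87845158), a stretch that was picked out after its genes were called. It holds 43 tested genes, of which 4 changed (9.3%), and no other gene of chromosome 1 did. Wdfy1, which encodes an endosomal adaptor of Toll-like receptor signaling, was at 8.73 and 9.31 CPM in Neil1/2-/- mice, against 31.2, 34.2 and 34.1 CPM in Neil2-/- mice. It fell by 1.88 on the log2 scale (standard error 0.09, adjusted p = 1.24e-06), the smallest p in the comparison. N1_2_3 was at 10.8 CPM, close to the Neil1/2-/- libraries. In Neil1-/- mice it was at 34.1 and 34.6 CPM, against 34.1, 34.7 and 32.7 CPM in wildtype mice, and the test that the loss of NEIL1 acts alike with and without NEIL2 gave an interaction log2 fold change of -1.90 (standard error 0.12, adjusted p = 1.92e-05). Sag, the arrestin of rod photoreceptors, was low throughout, at 2.85 and 3.10 CPM in Neil1/2-/- mice, against 1.12, 1.05 and 0.88 CPM in Neil2-/- mice (log2 fold change 1.54, adjusted p = 0.0449). N1_2_3 was at 3.31 CPM for Sag, but the call was lost under 12 of 22 alternatives. Ecel1 belongs with a set of genes that N1_2_3 did not share.

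In the interaction test 13 genes passed (0.093% of genes tested), that is, they changed differently with the loss of NEIL1 in mice without and with NEIL2. Of these, 9 are among the 31. Mid1 encodes a ubiquitin ligase that binds microtubules, and in C57BL/6 mice spans the boundary of the pseudoautosomal region (chromosome X from 169685199 to 169990798). It was at 62.9 and 83.9 CPM in Neil1/2-/- mice, against 10.7, 9.59 and 7.68 CPM in Neil2-/- mice, a log2 fold change of 2.98 (standard error 0.19, adjusted p = 1.19e-05). With NEIL2 present it went the other way, at 10.1 and 9.94 CPM in Neil1-/- mice, against 48.7, 41.3 and 30.3 CPM in wildtype mice (log2 fold change -1.996, adjusted p = 7.52e-04). Both single knockouts were thus at about the same level and the double knockout was far above it. N1_2_3, at 82.7 CPM, was at the level of the Neil1/2-/- libraries, and the interaction came to 4.97 on the log2 scale (standard error 0.29, adjusted p = 9.27e-06).

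Npy, which encodes neuropeptide Y, a transmitter of hippocampal interneurons, was likewise higher in Neil1/2-/- than in Neil2-/- mice and lower in Neil1-/- than in wildtype mice. It was at 36.9 and 44.0 CPM in Neil1/2-/- mice, against 26.1, 24.1 and 22.9 CPM in Neil2-/- mice (log2 fold change 0.73, standard error 0.10, adjusted p = 0.00682). In Neil1-/- mice it was at 32.2 and 31.6 CPM, against 40.6, 42.7 and 44.8 CPM in wildtype mice, so that Neil1/2-/- mice were at the wildtype level and Neil2-/- mice were the lowest. The interaction came to 1.15 on the log2 scale (standard error 0.14, adjusted p = 0.00343). No other of the 8 interneuron markers passed the test of edgeR or of DESeq2. With Npy, 4 of the 8 had an unadjusted p under 0.05, all higher, against 10.6% of all genes in either direction. The median log2 fold change of the list was 0.29. The summed level of the 8 was 1486 and 1516 CPM in Neil1/2-/- mice, against 1341 to 1664 CPM in Neil2-/- mice. Ndn, which encodes the imprinted protein necdin, was called in the interaction only (log2 fold change 0.73, adjusted p = 0.0398; range over the alternatives 4.04e-06 to 0.478), and this call was lost under 13 of 21 alternatives, among them the removal of any 1 library other than Neil1/2-/- replicate 2.

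Several genes of this kind are near-identical copies, whose reads the counting step has to divide. Amd2 and Amd1 encode adenosylmethionine decarboxylase, the enzyme that feeds polyamine synthesis. Amd2 (chromosome 10 from 35708691 to 35711891) was at 0.343 and 1.13 CPM in Neil1/2-/- mice, against 44.3, 49.2 and 52.6 CPM in Neil2-/- mice. It fell by 6.03 on the log2 scale (standard error 0.31, adjusted p = 1.24e-06). Outside the Neil2-/- group no library was above 1.13 CPM, wildtype included, so the departure lies in Neil2-/- mice. Amd1 (chromosome 10 from 40287458 to 40302188) was at 187 and 191 CPM in Neil1/2-/- mice, against 126, 131 and 134 CPM in Neil2-/- mice (log2 fold change 0.53, adjusted p = 0.0114), a call lost under 5 of 22 alternatives, among them without Neil1/2-/- replicate 1 and without Neil2-/- replicate 1 or 2. The sum of both genes was 187 and 192 CPM in Neil1/2-/- mice, against 171, 180 and 186 CPM in Neil2-/- mice and 191 to 216 CPM in wildtype mice. A reference transcript of each gene was aligned, and 99.6% of 3204 aligned bases were identical. Of the stretches of 100 bases of the Amd2 transcript, as long as a read, 72.9% occur exactly in that of Amd1.

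The start regions of the pair show where the likeness ends. Each run is from RefSeq (GRCm38.p6), 100 bases before to 28 bases after the annotated start on the minus strand of chromosome 10, 5′ to 3′, at 40302161 to 40302288 for Amd1 and 35711864 to 35711991 for Amd2. Capitals mark the longest run that both share, 26 bases long.
Amd1: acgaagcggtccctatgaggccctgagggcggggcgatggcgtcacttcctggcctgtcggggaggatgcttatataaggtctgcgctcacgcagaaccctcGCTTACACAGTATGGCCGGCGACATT
Amd2: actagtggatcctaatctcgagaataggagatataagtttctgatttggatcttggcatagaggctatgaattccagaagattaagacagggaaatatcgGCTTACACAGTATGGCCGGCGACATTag
The shared run begins at or just after the start of each transcript, and the sequence before it differs.

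Tmem254a, Tmem254b and Tmem254c on chromosome 14, which encode a transmembrane protein, have reference transcripts that were identical over all aligned bases. They can therefore only be read as a sum, which was 20.2 and 20.3 CPM in Neil1/2-/- mice, against 106, 120 and 119 CPM in Neil2-/- mice. In the other pair the sum was 109 and 132 CPM in Neil1-/- mice, against 43.7, 64.7 and 57.6 CPM in wildtype mice. Each single knockout thus lay above wildtype and the double knockout below it. N1_2_3 was at 22.2 CPM. Counted apart, all 3 copies were called lower in Neil1/2-/- than in Neil2-/- mice, with Tmem254b the most abundant (log2 fold change -2.24, standard error 0.18, adjusted p = 1.43e-04). Ccl21b, a chemokine gene with near-identical copies of its own, was at 9.52 and 8.86 CPM in Neil1/2-/- mice, against 23.3, 30.7 and 36.0 CPM in Neil2-/- mice, and had 0 counts in every wildtype library. Its call was just inside the threshold (adjusted p = 0.0499) and was lost under 13 of 22 alternatives.

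**Figure D3:**
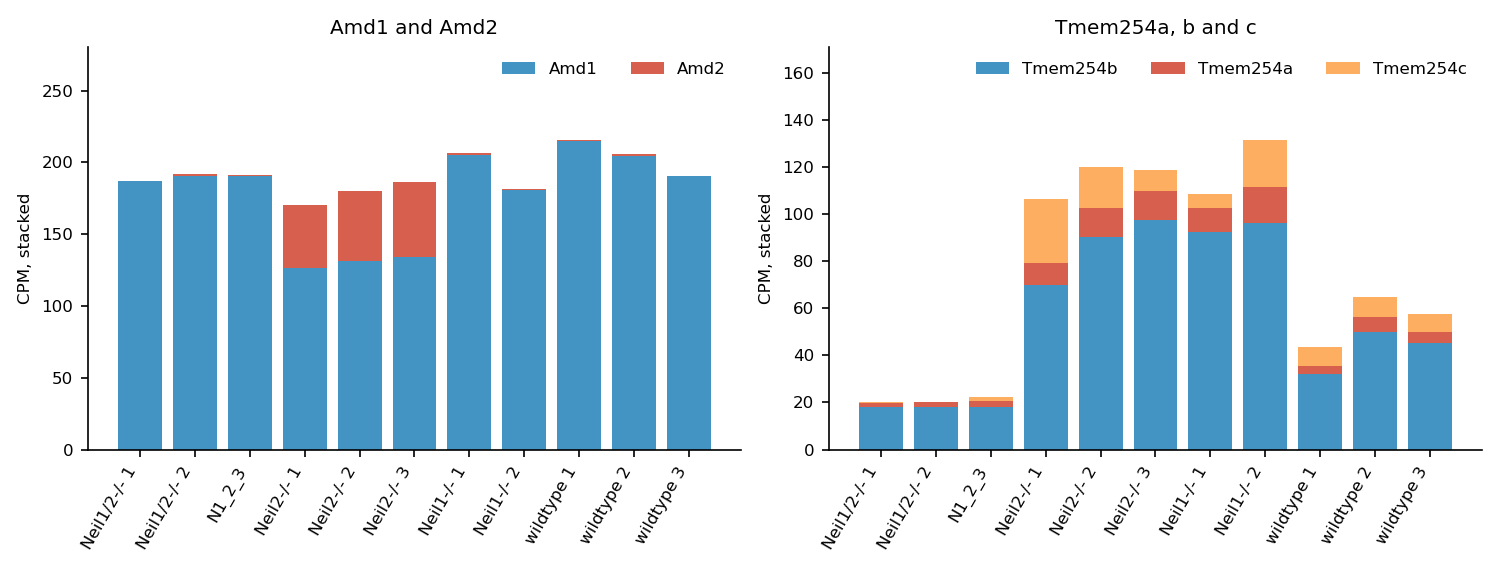
CPM per library (vertical axes, from 0), stacked over Amd1 and Amd2 on the left and over the 3 Tmem254 copies on the right. Amd2 is visible in the 3 Neil2-/- libraries only, where Amd1 is lower, and the Tmem254 sum is 20.2 and 20.3 CPM in Neil1/2-/- mice, below every Neil2-/-, Neil1-/- and wildtype library.

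**Figure D4:**
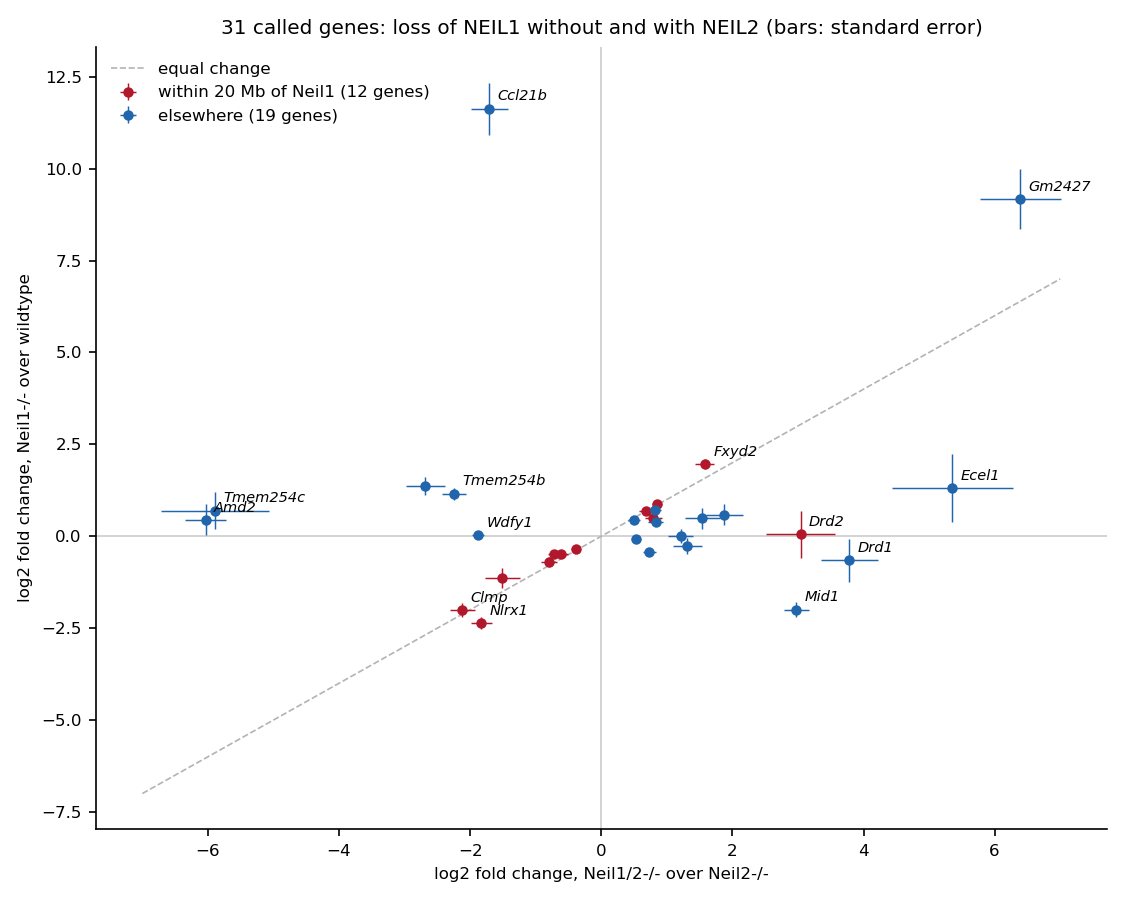
Log2 fold change of the 31 called genes for Neil1/2-/- over Neil2-/- mice (horizontal axis) and for Neil1-/- over wildtype mice (vertical axis), with bars of 1 standard error and a dashed line of equal change. The 12 genes within 20 Mb of Neil1 (red) lie on the same side of 0 on both axes, Drd2 only barely so on the vertical axis (0.05). Mid1, Wdfy1, Amd2 and the Tmem254 copies do not. Fitted values of Gm2427 and Ccl21b on the vertical axis depend on the prior count, since wildtype libraries had 0 counts.

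A last group of called genes holds several that are best known from the striatum, where medium spiny neurons carry dopamine receptors. In bulk RNA, fewer cells of a type and less RNA per cell cannot be told apart. Drd1, the D1 dopamine receptor, was at 10.4 and 4.48 CPM in Neil1/2-/- mice, against 0.326, 0.699 and 0.587 CPM in Neil2-/- mice (log2 fold change 3.78, standard error 0.43, adjusted p = 0.00176). Drd2, the D2 receptor, was at 4.07 and 4.28 CPM in Neil1/2-/- mice, against 0.233, 0.649 and 0.636 CPM in Neil2-/- mice (log2 fold change 3.04, standard error 0.53, adjusted p = 0.0449). N1_2_3 was at 0.494 CPM for Drd1 and 0.395 CPM for Drd2, within the Neil2-/- range for both.

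Ppp1r1b, which encodes DARPP-32, the phosphatase inhibitor through which dopamine signals, was at 113 and 101 CPM in Neil1/2-/- mice, against 69.8, 77.9 and 79.4 CPM in Neil2-/- mice (log2 fold change 0.50, adjusted p = 0.0477). In Neil1-/- mice Ppp1r1b was at 80.0 and 73.1 CPM, against 51.9, 58.9 and 56.8 CPM in wildtype mice (log2 fold change 0.45, adjusted p = 0.0875). Neil2-/- mice were above wildtype mice as well (log2 fold change 0.44, adjusted p = 0.0475). Rgs9, a regulator that ends signaling by G proteins, was at 19.9 and 13.5 CPM in Neil1/2-/- mice, against 7.27, 8.59 and 5.82 CPM in Neil2-/- mice (log2 fold change 1.21, adjusted p = 0.0192). Pde7b, a cyclic AMP phosphodiesterase, was at 9.81 and 5.32 CPM in Neil1/2-/- mice, against 1.77, 2.65 and 1.76 CPM in Neil2-/- mice (log2 fold change 1.88, adjusted p = 0.015). N1_2_3 was just below the Neil2-/- range for Ppp1r1b and Pde7b, at 68.0 and 1.53 CPM, and a little above it for Rgs9, at 9.34 CPM. Ecel1, a peptidase of the neprilysin family, was high in 1 library only, with 228 and 24 counts in Neil1/2-/- mice, against 2, 1 and 6 counts in Neil2-/- mice. Lrrtm3, an organizer of synapses, was at 9.37 and 6.01 CPM in Neil1/2-/- mice, against 3.31, 2.75 and 3.23 CPM in Neil2-/- mice. In wildtype mice Lrrtm3 was at 6.78, 5.17 and 5.61 CPM, so Neil1/2-/- replicate 2 lay within the wildtype range and Neil2-/- mice below it. When N1_2_3 was counted as another Neil1/2-/- library by its title, 29 genes were called, and all of Drd1, Drd2, Ppp1r1b, Rgs9, Pde7b, Ecel1 and Lrrtm3 lost their calls, along with Ccl21b, while 11 of the 12 genes near Neil1 kept theirs. Without Neil1/2-/- replicate 1, Drd1 kept its call and the other 6 lost theirs.

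**Figure D5:**
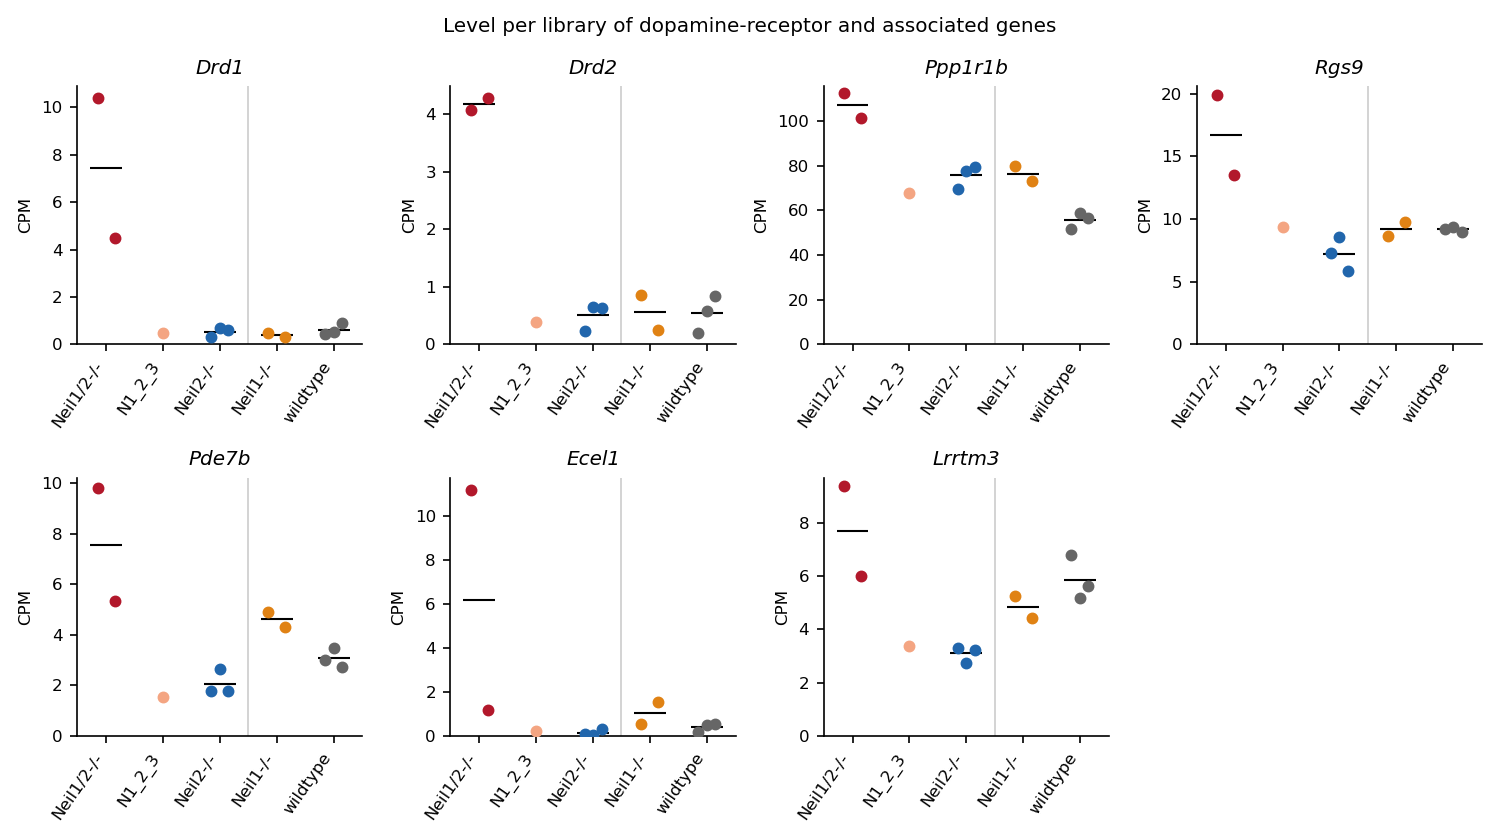
CPM (vertical axes, from 0) per library of 7 called genes that lost their calls when N1_2_3 was added by its title, with a line at the mean of each group. Drd1 is at 10.4 and 4.48 CPM in Neil1/2-/- mice, against 0.494 CPM in N1_2_3 and no more than 0.699 CPM in Neil2-/- mice.

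Markers of other cells were read beside this group. Of 7 striatum markers, 4 were called higher, against 0.129% of all genes; these are Drd1, Drd2, Ppp1r1b and Rgs9, the genes that lead the group itself. The median log2 fold change over the list was 2.53 against -0.00 over all genes, and its summed level was 339 and 315 CPM in Neil1/2-/- mice, against 263 to 281 CPM in Neil2-/- mice and 276 CPM in N1_2_3. Adora2a, an adenosine receptor gene, was at 5.30 and 4.68 CPM in Neil1/2-/- mice, against 0.606, 0.849 and 1.13 CPM in Neil2-/- mice (adjusted p = 0.0704), while Penk, the enkephalin gene, was at 163 and 168 CPM in Neil1/2-/- mice, against 185, 188 and 185 CPM in Neil2-/- mice.

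No marker of oligodendrocytes, astrocytes, blood, endothelium, thalamus or choroid plexus and ependyma passed edgeR's test. All 8 oligodendrocyte markers were higher in both Neil1/2-/- libraries than in every Neil2-/- library, against 26.7% of all genes that did not overlap in either direction. Their sum was 1238 and 676 CPM in Neil1/2-/- mice, against 493 to 556 CPM in Neil2-/- mice and 466 CPM in N1_2_3. Astrocyte markers summed to 1141 and 800.2 CPM in Neil1/2-/- mice, against 604 to 858 CPM in Neil2-/- mice and 799.8 CPM in N1_2_3. Blood markers, led by hemoglobin genes, summed to 274 and 112 CPM in Neil1/2-/- mice, against 67.0 to 118 CPM in Neil2-/- mice and 52.7 CPM in N1_2_3. Oligodendrocyte markers were thus apart between the groups, while Neil1/2-/- replicate 2 lay within the Neil2-/- range for astrocytes and blood. Endothelium markers summed to 88.4 and 72.4 CPM in Neil1/2-/- mice, against 60.7 to 65.1 CPM in Neil2-/- mice and 75.9 CPM in N1_2_3. Markers of the thalamus summed to 101 and 32.4 CPM in Neil1/2-/- mice, against 27.2 to 30.1 CPM in Neil2-/- mice and 31.1 CPM in N1_2_3. Those of the choroid plexus and ependyma summed to 304 and 132 CPM in Neil1/2-/- mice, against 55.6 to 91.1 CPM in Neil2-/- mice and 64.3 CPM in N1_2_3. Replicate 1 was the higher one for each of these lists. In single Neil1-/- and wildtype libraries the oligodendrocyte sum ran from 497 to 671 CPM and the astrocyte sum from 700 to 899 CPM. There the blood sum ran from 75.7 to 154 CPM and the endothelium sum from 62.6 to 70.9 CPM. The thalamus sum ran from 31.9 to 85.2 CPM and the choroid plexus and ependyma sum from 43.4 to 175 CPM in those libraries. At an unadjusted p under 0.05, which 10.6% of all genes reached, were 8 of 8 oligodendrocyte, 6 of 8 astrocyte, 4 of 5 blood, 3 of 6 endothelium, 4 of 6 thalamus and 3 of 5 choroid plexus and ependyma markers, all higher in Neil1/2-/- mice. DESeq2 called 4 of the oligodendrocyte markers and 1 each of the astrocyte, blood and choroid plexus markers. Markers of microglia, of CA3 and CA2 and of dentate granule cells had no call by either tool. At an unadjusted p under 0.05 by edgeR were 0 of 8 microglia markers and 1 of 5 dentate granule markers, which was higher. Of 6 CA3 and CA2 markers, 1 was higher and 1 lower at that level. The part of other cells in the change of Drd1, Drd2 and the genes beside them was not tested.

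Wscd1, on chromosome 11, was at 28.1 and 21.8 CPM in Neil1/2-/- mice, against 14.3, 14.0 and 13.8 CPM in Neil2-/- mice (log2 fold change 0.83, adjusted p = 0.0114), and N1_2_3 was at 21.0 CPM. Its call was lost under 5 of 22 alternatives, among them without Neil1/2-/- replicate 1 and without Neil2-/- replicate 2 or 3.

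Lists of genes tied to the function of NEIL1 and NEIL2 showed few changes. None of 8 tested DNA glycosylases, a list that leaves out Neil1, changed by edgeR or by DESeq2. The same held for 20 base excision repair genes that act after the glycosylase. The median log2 fold changes were -0.09 and -0.02. At an unadjusted p under 0.05, which 10.6% of all genes reached, were 0 of the 8 and 2 of the 20. Ogg1, the glycosylase for oxidized guanine, was at 6.38 and 4.58 CPM in Neil1/2-/- mice, against 5.17, 7.04 and 7.34 CPM in Neil2-/- mice. Neil3 had at most 0.0492 CPM in any of the 5 libraries and was not tested. Of 14 p53 target genes and 16 genes of the oxidative stress response none changed by either tool, although 15 of the 16 had a positive log2 fold change (median 0.04). At an unadjusted p under 0.05 were 2 of the 14 and 2 of the 16.

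No member of the lists of activity-regulated genes, synaptic receptors and postsynaptic scaffold passed edgeR's test. None of 19 immediate early genes changed by edgeR (1 at an unadjusted p under 0.05), with a median log2 fold change of -0.11. The lowest was Npas4, an activity-dependent transcription factor, at 8.39 and 6.50 CPM in Neil1/2-/- mice, against 15.7, 13.3 and 16.9 CPM in Neil2-/- mice (log2 fold change -1.04, standard error 0.25, adjusted p = 0.146). Its libraries did not overlap, N1_2_3 was at 9.59 CPM, and DESeq2 called it (adjusted p = 0.00713; range over the alternatives 0.00713 to 0.767). None changed of 23 nuclear receptors, 15 clock genes, 15 ionotropic glutamate receptor genes, 12 GABA-A receptor subunits, 19 genes of the excitatory postsynaptic scaffold and 10 genes of DNA methylation and demethylation by either tool, and the medians lay between -0.08 and 0.07. In the order named, 2, 0, 3, 2, 3 and 0 of these had an unadjusted p under 0.05. Nr4a1, an orphan nuclear receptor, was at 109 and 122 CPM in Neil1/2-/- mice, against 130, 127 and 146 CPM in Neil2-/- mice. Htr3a, the ionotropic serotonin receptor, lies 8.23 Mb before Neil1 and was at 1.91 and 2.41 CPM in Neil1/2-/- mice, against 4.33, 4.74 and 5.82 CPM in Neil2-/- mice (log2 fold change -1.20, adjusted p = 0.126 by edgeR and 0.0184 by DESeq2, the lowest of its alternatives, which reached 0.999).

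Over the remaining lists, the calls are to be read against 0.222% of all genes. Of 22 tested genes of nucleic acid sensing and the interferon response, 2 changed, Nlrx1 and Wdfy1, both lower, and the median of the list was 0.09. Of 25 potassium channel and pump genes only Fxyd2 changed (median of the list -0.05). DESeq2 called the same 3 genes in these lists. Of 14 tested genes of dopamine and DARPP-32 signaling 4 changed, the same 4 as among the striatum markers, with a median of 0.94, and DESeq2 called 7, with Adora2a, Gnal and Tac1 besides.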

How the data were processed

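RNA of CA1 was sequenced from single mice. The authors deposited estimated counts made with RSEM on Bowtie2 alignments (GRCm38; versions not given in the sources used here; 87.8% of values are whole), rounded here before every fit. CPM were scaled by TMM. The quasi-likelihood test of edgeR 4.0.16 in R 4.3.3 was fitted over 10 libraries with 1 mean per genotype, after filterByExpr (minimum count 10), 2-sided, with Benjamini-Hochberg adjustment and a threshold of 0.05; the plan foresaw rounding for DESeq2 only. Libraries were grouped where title and label gave the same genotype, which left out 2 of 12. The 10 libraries held 19618921 to 21970173 counts. Nothing in the sources says how mice were allotted to preparations, so p-values measure the spread between these libraries. Alternatives used DESeq2 1.42.0, limma voom (limma 3.58.1), other scaling, filters, fits and libraries. Named were the targeted genes, called genes, leading members of 26 fixed lists and genes of the article and of an earlier report. The members and lists were chosen with earlier results of these data known. On data simulated for this comparison over 13982 genes, 93% of genes changed by 1 and 98% of those changed by 2 on the log2 scale were recovered, with 11 false calls. The changed genes were drawn only from those with a mean above 2 CPM, and no library that stands apart was simulated. Recovery of less abundant genes, or with such a library, was not measured. Positions and promoter sequences came from RefSeq (GRCm38.p6), transcripts from GENCODE; 18429 of 18558 gene numbers matched. Figures were drawn with matplotlib 3.10.9.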

Additional observations from a re-analysis of the deposited data

Results flagged for a closer look

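For 13 genes the change with the loss of NEIL1 differed between mice without and with NEIL2 by the interaction test (each value is the log2 fold change of Neil1/2-/- over Neil2-/- mice minus that of Neil1-/- over wildtype mice). It was positive for Mid1 (4.97), Drd1 (4.44), Npy (1.15) and Ndn (0.73). It was negative for Wdfy1 (-1.90), Amd2 (-6.48) and the copies Tmem254a (-4.06), Tmem254b (-3.40) and Tmem254c (-6.59). It was also negative for Ccl21b (-13.34), LOC100041599 (-11.34), Gm29801 (-3.77) and Gm29804 (-4.55). The values of Ccl21b and LOC100041599 depend on the prior count of the fit, since all wildtype libraries had 0 counts, and are no bound. These last 4 genes were higher in Neil1-/-, Neil2-/- and Neil1/2-/- mice than in wildtype mice. Neil2-/- and wildtype means were 30.0 and 0 CPM for Ccl21b and 7.27 and 0 CPM for LOC100041599. They were 5.48 and 0.76 CPM for Gm29801, and 9.52 and 0.50 CPM for Gm29804. The libraries of Neil1/2-/- mice were below those of Neil2-/- mice for each of the 4, where 26.7% of all genes did not overlap in either direction. LOC100041599 was at 3.29 and 4.97 CPM in Neil1/2-/- mice, against 6.66, 6.09 and 9.05 CPM in Neil2-/- mice. Of the 4, only Ccl21b was called in the main comparison. The groups hold 2 or 3 libraries, so no library was tested as an outlier.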

How the results depend on the processing

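Of the 31 genes called between Neil1/2-/- and Neil2-/- mice, 12 kept their call under all 22 alternatives: Amd2, Clmp, Dcps, Fxyd2, Gm2427, Ift46, Mid1, Nlrx1, Npy, Tmem254a, Tmem254b and Wdfy1. No named gene with a call reversed its direction. Of the 13 interaction calls, 10 held under all 21 alternatives; Drd1 was lost under 15 of the 21, Ndn under 13 and Tmem254c under 12. Without a filter on low counts, 151 genes were called (116 higher, 35 lower), 22 in the interaction, 44 in Neil1-/- against wildtype mice and 23 near Neil1. With DESeq2 these were 149 (104 higher, 45 lower), 30, 86 and 25. At a threshold of 0.1, 64 genes were called in the main comparison and 44 in Neil1-/- mice. Within 5 Mb of Neil1 3 were called. Leaving out 1 library in turn gave 14 to 328 called genes (8 to 300 higher, 6 to 28 lower), 10 to 41 in the interaction, 17 to 26 in Neil1-/- against wildtype mice and 4 to 18 near Neil1. The lone library of a group of 2 is then assumed to vary like the others. Without Neil1/2-/- replicate 1 and Neil1-/- replicate 2 together, chosen after seeing the data, as were the fits on counts not rounded, 17 genes were called (8 higher) and 5 near Neil1. The correlation of deviations from the group mean was 0.07 between the libraries of number 1 and -0.01 between those of number 2. The deviations of the 2 Neil1/2-/- libraries mirror each other, so these values cannot settle whether replicate numbers pair the libraries. With a replicate block 21 genes were called, 17 of them among the 31, with 8 lower and 6 near Neil1. The cause of these differences was not tested. At 20062787 to 21970173 counts per library, genes such as Drd2, with 5 to 13 counts in Neil2-/- mice, have a wide counting error.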
